A study of Homo sapiens with 12 samples.

Results

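SAMD11 and the genes beside it on the short arm of chromosome 1 were followed in 2 human ovarian cancer cell lines exposed to ascites, the fluid that gathers in the abdomen of patients with this disease. The set held 4 of the 19251 genes listed in the files, in map order LINC02593, SAMD11, NOC2L and KLHL17. SAMD11 and LINC02593 were chosen because both had been found lower with ascites in both lines, so their ascites differences are described here without a test. NOC2L and KLHL17 were chosen by position, as the next genes along. The question was whether lower RNA with ascites was limited to SAMD11 and LINC02593 or was shared with the genes next to them.

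CAOV3 is labelled as an epithelial line of high grade serous type and TOV21G as an epithelial line of clear cell type, both without engineered change. Each line had 3 control libraries, from untreated cells, and 3 ascites libraries, from cells kept for 16 h in medium to which 10% ovarian cancer ascites had been added. All groups were grown in serum-containing medium with antibiotics. The labels do not say how many patients the ascites came from, whether control wells received another fluid, or whether replicates were separate cultures on separate days, so p-values measure only the spread between these libraries. Total RNA was sequenced, and each value is the reads of a gene over its library's size factor, called a normalised count below. The libraries held 26697609 to 34491304 reads.

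Of the markers that define the cells, KRT8 and KRT18, keratins of simple epithelia, were present in all 12 libraries. PAX8, a transcription factor of Müllerian epithelium, was low in CAOV3 (18.2 to 25.6) and high in TOV21G (6797 to 9342). CDH1, the epithelial cadherin, was low in TOV21G (6.29 to 17.3) and had 389 to 455 in CAOV3 controls and 266 to 281 with ascites. The fibroblast markers LUM (3532 to 4604) and PDGFRA (940 to 1102) were present in CAOV3 and at most 4.97 and 2.17 in TOV21G. COL1A1, also a fibroblast marker, had 254 to 331 in CAOV3 and 1767 to 2033 in TOV21G. Of 6 white blood cell markers, 2 are listed in the files, with summed values of 101 to 134 in CAOV3 and 8.39 to 20.4 in TOV21G. The TOV21G libraries also differed in nuclear RNAs: KCNQ1OT1 had 95.4, 656 and 234 normalised counts in controls 1 to 3 and 731, 235 and 1511 in ascites libraries 1 to 3, against 614 to 813 in CAOV3. Results for TOV21G are therefore also given without its libraries at either end of that range.

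SAMD11 encodes a nuclear protein with a sterile alpha motif (SAM) domain, a fold by which proteins join to one another, and is related to the Polycomb group, whose complexes keep genes silent through histone marks. LINC02593 is a long intergenic non-coding RNA whose function is not established. NOC2L is a nucleolar protein involved in ribosome assembly and is also known as an inhibitor of histone acetyltransferases. KLHL17, or actinfilin, is a Kelch protein known as an adaptor for cullin 3 ubiquitin ligases and as an actin-binding protein of neurons. Neighbouring genes can share regulatory DNA, and comparing them separates a change at 1 gene from one along a stretch of chromosome.

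In GENCODE release 29 (GRCh38) the 4 genes span 48851 bases of chromosome 1. LINC02593 (ENSG00000223764) lies at chr1:916865-921016 on the minus strand, and SAMD11 (ENSG00000187634) at chr1:923928-944581 on the plus strand, with 2911 bases between them. NOC2L (ENSG00000188976) lies at chr1:944204-959309 on the minus strand and meets SAMD11 tail to tail. Their annotated ends share 378 bases, exonic in both, which make up 9.07% of the exonic bases of SAMD11 and 6.82% of those of NOC2L. KLHL17 (ENSG00000187961) starts 1277 bases beyond NOC2L, at chr1:960587-965715 on the plus strand. The build and the strand setting used for counting are not given in the sources used here, and reads from the bases that SAMD11 and NOC2L share cannot be assigned to one of them without strand.

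The DNA upstream of the RefSeq starts is shown to compare the genes in CpG content. The RefSeq starts of SAMD11 and LINC02593 lie 1803 and 1324 bases inside the GENCODE genes given above, so these windows are within those annotated genes, and the start used in these cells was not measured. The sequences are the 250 bases before the RefSeq start (GRCh38.p14), read 5′ to 3′ on the strand of the gene, with each CpG dinucleotide in capitals. They cover chr1:925481-925730 (plus strand) for SAMD11, chr1:919693-919942 (minus strand) for LINC02593 and chr1:959257-959506 (minus strand) for NOC2L.
SAMD11: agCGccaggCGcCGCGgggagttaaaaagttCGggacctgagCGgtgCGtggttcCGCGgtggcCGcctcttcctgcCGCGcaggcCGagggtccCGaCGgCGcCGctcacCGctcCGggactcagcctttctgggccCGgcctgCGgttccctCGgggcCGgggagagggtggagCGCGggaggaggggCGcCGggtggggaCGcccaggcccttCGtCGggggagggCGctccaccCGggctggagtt
LINC02593: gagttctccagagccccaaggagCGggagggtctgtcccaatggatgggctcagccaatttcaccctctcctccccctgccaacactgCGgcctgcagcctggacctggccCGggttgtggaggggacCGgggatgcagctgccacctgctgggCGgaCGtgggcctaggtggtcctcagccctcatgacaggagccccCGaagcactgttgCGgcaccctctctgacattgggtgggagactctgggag
NOC2L: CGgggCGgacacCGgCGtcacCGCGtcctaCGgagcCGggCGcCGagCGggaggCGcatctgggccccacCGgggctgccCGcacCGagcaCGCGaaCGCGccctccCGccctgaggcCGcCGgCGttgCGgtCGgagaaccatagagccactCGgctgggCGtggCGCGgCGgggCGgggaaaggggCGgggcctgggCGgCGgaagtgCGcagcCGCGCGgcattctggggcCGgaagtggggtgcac

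SAMD11 had 32 CpG dinucleotides in its window and a GC content of 75.6%, and NOC2L had 39 and 78.4%. LINC02593 had 8 and 66%, and KLHL17, at chr1:960334-960583, had 25 and 73.2%. Over 35116 RefSeq promoters the median was 11 CpG dinucleotides and 58% GC, so LINC02593 lay below the median in CpG count and the other genes above it. The starts of SAMD11 and LINC02593 point away from each other and lie 6039 bases apart. NOC2L and KLHL17 also start head to head, 1328 bases apart.

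Each window was searched on both strands for 7 short motifs. GGGCGG, the GC box, occurred 5 times in NOC2L, 3 times in KLHL17 (where matches overlap) and once in LINC02593, and 42.6% of all promoters hold it. CCAAT occurred 3 times in LINC02593 and in none of the other genes, against 32% of all promoters. CAGAC, a SMAD-binding element, occurred once in LINC02593 and once in KLHL17, against 38% of all promoters. CACGTG (the E-box), TCACNCCAC (a sterol regulatory element), TTCNNNGAA (a STAT site) and TGANTCA (an AP-1 site) occurred in none of the 4 windows. These are held by 6.34%, 0.883%, 6.57% and 6.57% of all promoters. The SAMD11 window held none of the 7 motifs, so no motif of the list was common to SAMD11 and LINC02593.

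SAMD11 RNA was lower with ascites in both lines, and the gap was wider in TOV21G. Normalised counts in CAOV3 were 1009, 1052 and 1021 in control libraries 1 to 3 and 863, 779 and 826 in ascites libraries 1 to 3. In TOV21G they were 3207, 2968 and 3152 in controls and 1986, 2058 and 1849.7 in ascites libraries. In each line every ascites library lay below every control. The means were 1027 ± 22.2 and 823 ± 42.1 in CAOV3 and 3109 ± 125 and 1965 ± 106 in TOV21G (SD, n = 3 libraries). On the scale of log2(normalised count + 1), used for all fold changes below, the difference was -0.32 (SE 0.05) in CAOV3 and -0.66 (SE 0.05) in TOV21G.

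LINC02593 was lower as well. CAOV3 libraries held 430.1, 458 and 416 normalised counts as controls and 352, 331 and 329 with ascites. TOV21G libraries held 982, 994 and 928 as controls and 636, 734 and 687 with ascites. Here too every ascites library lay below every control of its line. Means were 435 ± 21.6 and 338 ± 12.7 in CAOV3 and 968 ± 35.3 and 686 ± 48.8 in TOV21G (SD, n = 3). The log2 difference was -0.36 (SE 0.06) in CAOV3 and -0.50 (SE 0.06) in TOV21G. Across all 17616 genes tested, 1.44% had every ascites library below every control in both lines, and 0.119% were called lower in both. SAMD11 and LINC02593 were picked as 2 of the latter, so their share says nothing further.

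**Figure D1:**
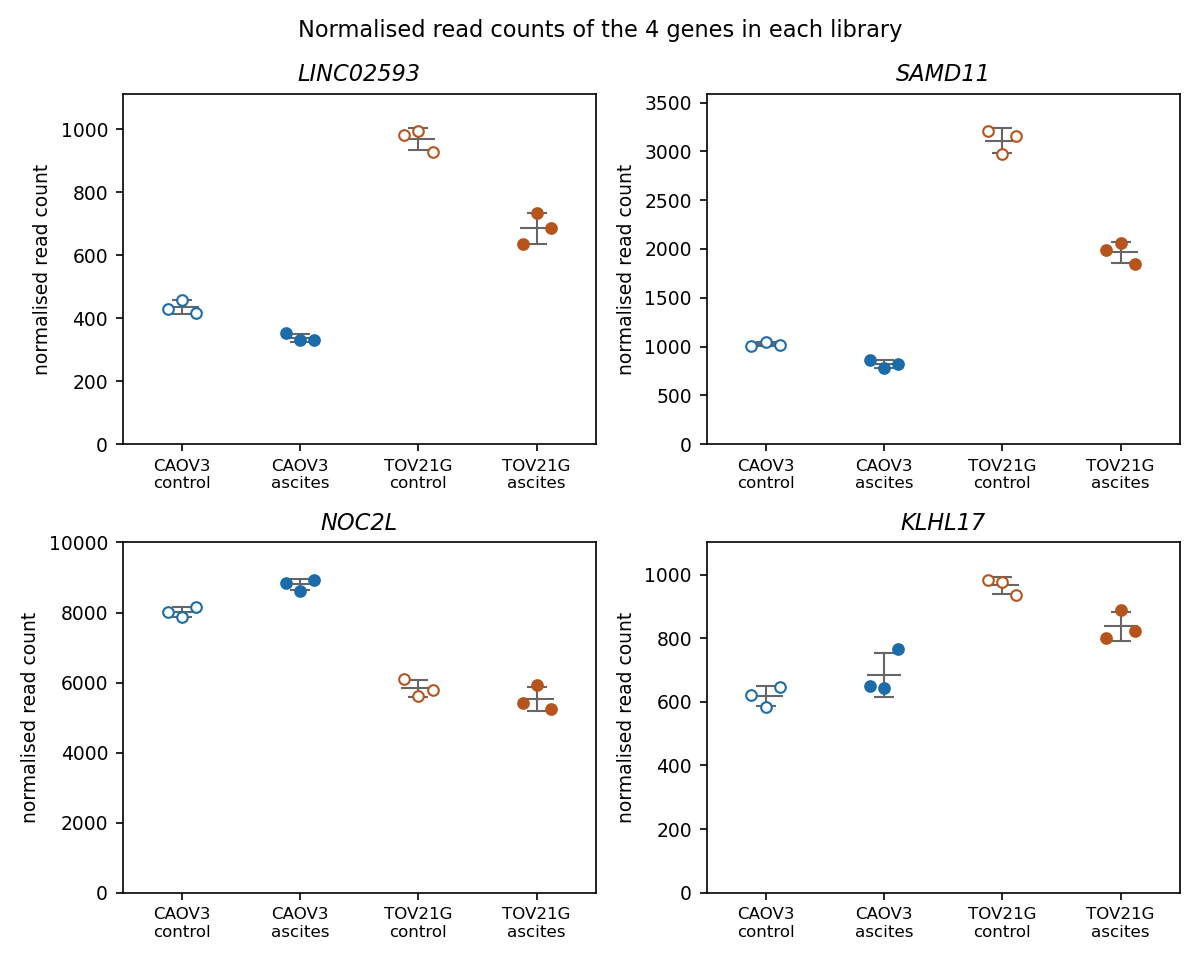
Normalised read counts (vertical axes, from 0) of the 4 genes in each of the 12 libraries, as open points for controls and filled points for ascites, with bars for the mean ± SD of 3 libraries. SAMD11 and LINC02593 have all ascites points below the controls in both lines, while NOC2L has them above in CAOV3 and mixed with the controls in TOV21G.

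NOC2L, the gene that overlaps the end of SAMD11, was not called in either line. CAOV3 controls held 8010.2, 7882 and 8160.0 normalised counts and ascites libraries 8846, 8625 and 8939.7. TOV21G controls held 6097, 5620.5 and 5793 and ascites libraries 5420.0, 5929 and 5250.1. In CAOV3 every ascites library lay above every control, as for 11.4% of all tested genes, and in TOV21G the groups overlapped. The log2 fold change was 0.13 in CAOV3 (95% interval 0.03 to 0.24, limma adjusted p = 0.218) and -0.08 in TOV21G (-0.18 to 0.02, limma adjusted p = 0.633). In TOV21G 4.16% of all tested genes had every ascites library above every control, and NOC2L was not among them.

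KLHL17 was likewise not called. CAOV3 controls held 623, 585 and 645 normalised counts and ascites libraries 649, 642 and 765. TOV21G controls held 984, 978 and 935 and ascites libraries 800.1, 889 and 821. The groups overlapped in CAOV3, and in TOV21G every ascites library lay below every control, as for 6.99% of all tested genes. The log2 fold change was 0.15 in CAOV3 (95% interval -0.01 to 0.30, limma adjusted p = 0.408). In TOV21G it was -0.21 (-0.36 to -0.06, limma adjusted p = 0.377), an interval below 0 whose adjusted p missed the threshold. Of NOC2L and KLHL17, 0 of 2 were called in either line, against 1.73% of all tested genes in CAOV3 and 0.409% in TOV21G. edgeR and DESeq2 on recovered reads also called neither. At an unadjusted limma p under 0.05, NOC2L passed in CAOV3 and KLHL17 passed in TOV21G.

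Ratios within a library, which need no scaling between libraries, are given as a description. The log2 ratio of SAMD11 to NOC2L was -2.99, -2.91 and -3.00 in CAOV3 controls and -3.36, -3.47 and -3.44 with ascites. In TOV21G it was -0.93, -0.92 and -0.88 in controls and -1.45, -1.53 and -1.51 with ascites. The ratio therefore differed by -0.46 in CAOV3 and -0.58 in TOV21G, with no overlap. Against KLHL17, the SAMD11 ratio differed by -0.47 in CAOV3 and -0.46 in TOV21G, again without overlap. The ratio of LINC02593 to SAMD11 differed by -0.04 in CAOV3 and 0.16 in TOV21G, and overlapped between groups in both lines. That of KLHL17 to NOC2L differed by 0.01 in CAOV3, with overlap, and by -0.13 in TOV21G, without.

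**Figure D2:**
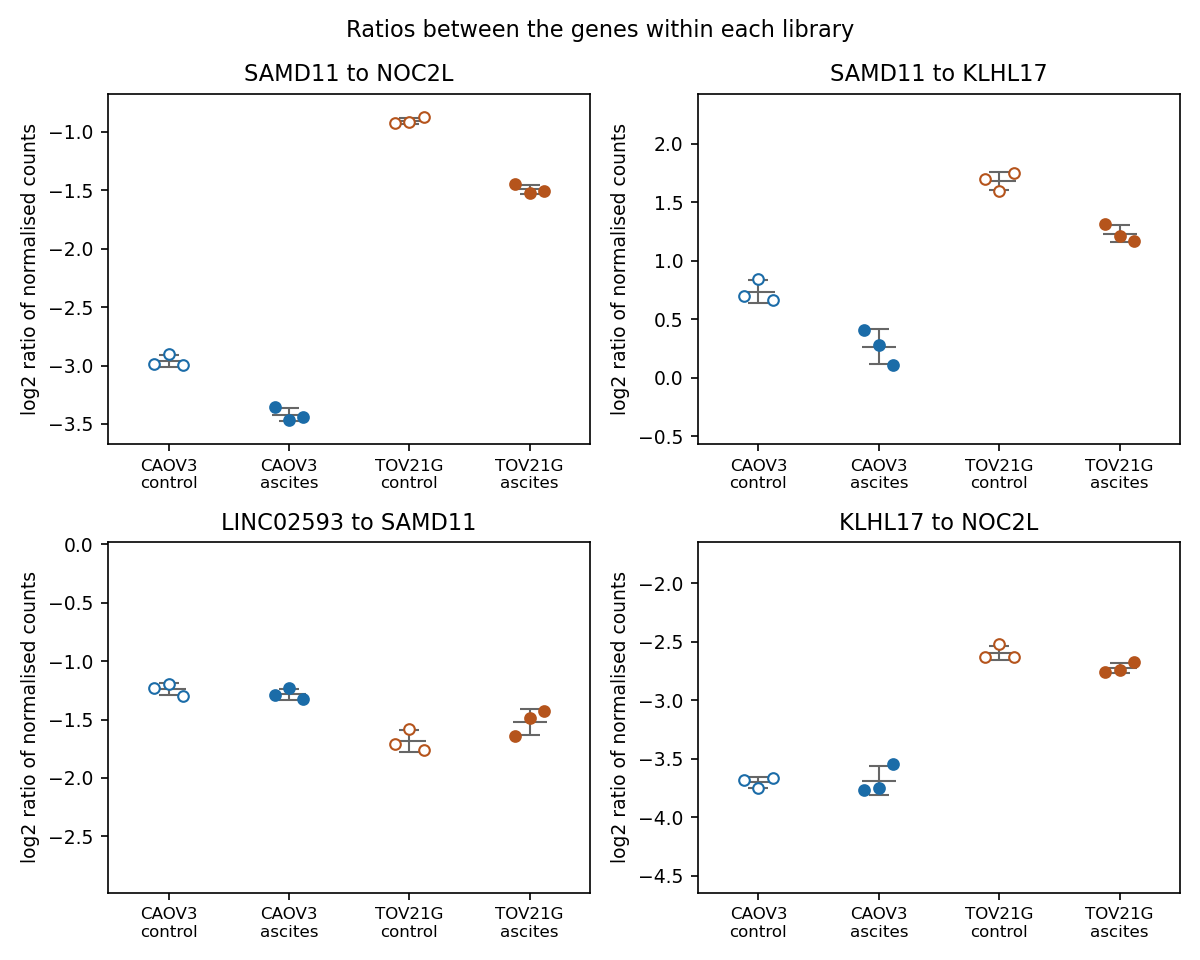
Log2 ratio of normalised counts for 4 gene pairs (vertical axes, each spanning the same range) in each library, as open points for controls and filled points for ascites, with bars for the mean ± SD of 3 libraries. SAMD11 lies lower with ascites against NOC2L and against KLHL17 in both lines, whereas the LINC02593 to SAMD11 ratio overlaps between control and ascites.

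The wider neighbourhood was read from the same fit. Within 500 kb of SAMD11 on each side GENCODE lists 91 genes, of which 55 are in the files and 49 were tested. Of the 45 tested genes other than the members, 1 was called higher and 0 lower in CAOV3, against 0.636% and 1.1% of all genes. In TOV21G 0 were called higher and 0 lower, against 0.142% and 0.267%. At an unadjusted p under 0.05 there were 2 of 45 in CAOV3, of which 0 were lower, and 3 in TOV21G, all 3 lower. The share of all tested genes under that unadjusted threshold is not given here. edgeR called 2 higher and 0 lower in CAOV3 and DESeq2 1 and 0, and neither tool called any in TOV21G. Of all 17616 tested genes edgeR called 511 in CAOV3 (309 lower) and 114 in TOV21G, and DESeq2 507 (319 lower) and 150. The median log2 fold change of these neighbours was 0.01 in CAOV3 and -0.06 in TOV21G, and over all tested genes -0.00 and -0.02. Of these neighbours, 30 had a mean of at least 50 normalised counts over all 12 libraries, which a gene can reach through 1 line alone. Their log2 fold changes ranged from -0.30 to 0.39 in CAOV3 and from -0.39 to 0.44 in TOV21G. The 0.39 in CAOV3 was that of MTCO2P12, an unprocessed pseudogene. Its means there were 6.48 in controls and 7.64 with ascites, against 4542 in TOV21G controls. In CAOV3 the lowest of these uncalled estimates (-0.30) was thus close to that of SAMD11 (-0.32). In TOV21G the lowest estimate (-0.39) was nearer 0 than that of SAMD11 (-0.66). It too was that of MTCO2P12, with SE 0.42 and a limma 95% interval of -1.30 to 0.52. That interval includes -0.66, so this gene does not show whether neighbours in TOV21G changed less than SAMD11. Within 1000 kb, SLC35E2B, related to nucleotide sugar transporters, fell in CAOV3 (log2 fold change -0.22, SE 0.04, limma adjusted p = 0.0137).

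The gene called higher was ISG15, an interferon-induced ubiquitin-like protein that starts 77.2 kb from the start of SAMD11. GENCODE places antisense genes within ISG15, so its counts are uncertain without strand. It had 465 ± 28.1 normalised counts in CAOV3 controls and 568 ± 27.3 with ascites, a log2 fold change of 0.29 (SE 0.06, limma adjusted p = 0.0351). This call was lost when any 1 of the CAOV3 libraries other than ascites replicate 1 was left out, or TOV21G control replicate 3. In TOV21G ISG15 had 484 ± 8.17 and 460 ± 21.7. These groups did not differ by a call in TOV21G (limma adjusted p = 0.734).

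The named genes between LINC01128 and AGRN were 10 beside the members, and 9 of them were called in neither line. Of those with a mean of at least 50 in every group, the nearest to LINC02593 was the non-coding AL645608.2. AL645608.6, which lies nearer, overlaps it on the same strand, so the reads of AL645608.2 are uncertain. AL645608.2 had 136 ± 30.2 and 119 ± 4.98 normalised counts in CAOV3 and 89.1 ± 14.5 and 81.9 ± 27.8 in TOV21G. PLEKHN1, a protein with a pleckstrin homology domain next to KLHL17, had 209 ± 29.1 and 222 ± 16.6 in CAOV3 and 285 ± 36.6 and 239.9 ± 19.96 in TOV21G. HES4, a repressor of the Hairy and Enhancer of split family, had 278 ± 16.3 and 262 ± 18.6 in CAOV3 and 259.9 ± 33.1 and 260.3 ± 9.02 in TOV21G. AGRN, which encodes the matrix proteoglycan agrin, had log2 fold changes of -0.04 and -0.06, and LINC01128 0.01 and -0.06. LINC00115, AL645608.6, AL645608.7 and PERM1 had means under 50 in every group, where the counts allow little precision. LINC01128 overlaps LINC00115 and PLEKHN1 overlaps PERM1 on the opposite strand, so these counts too are uncertain.

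**Figure D3:**
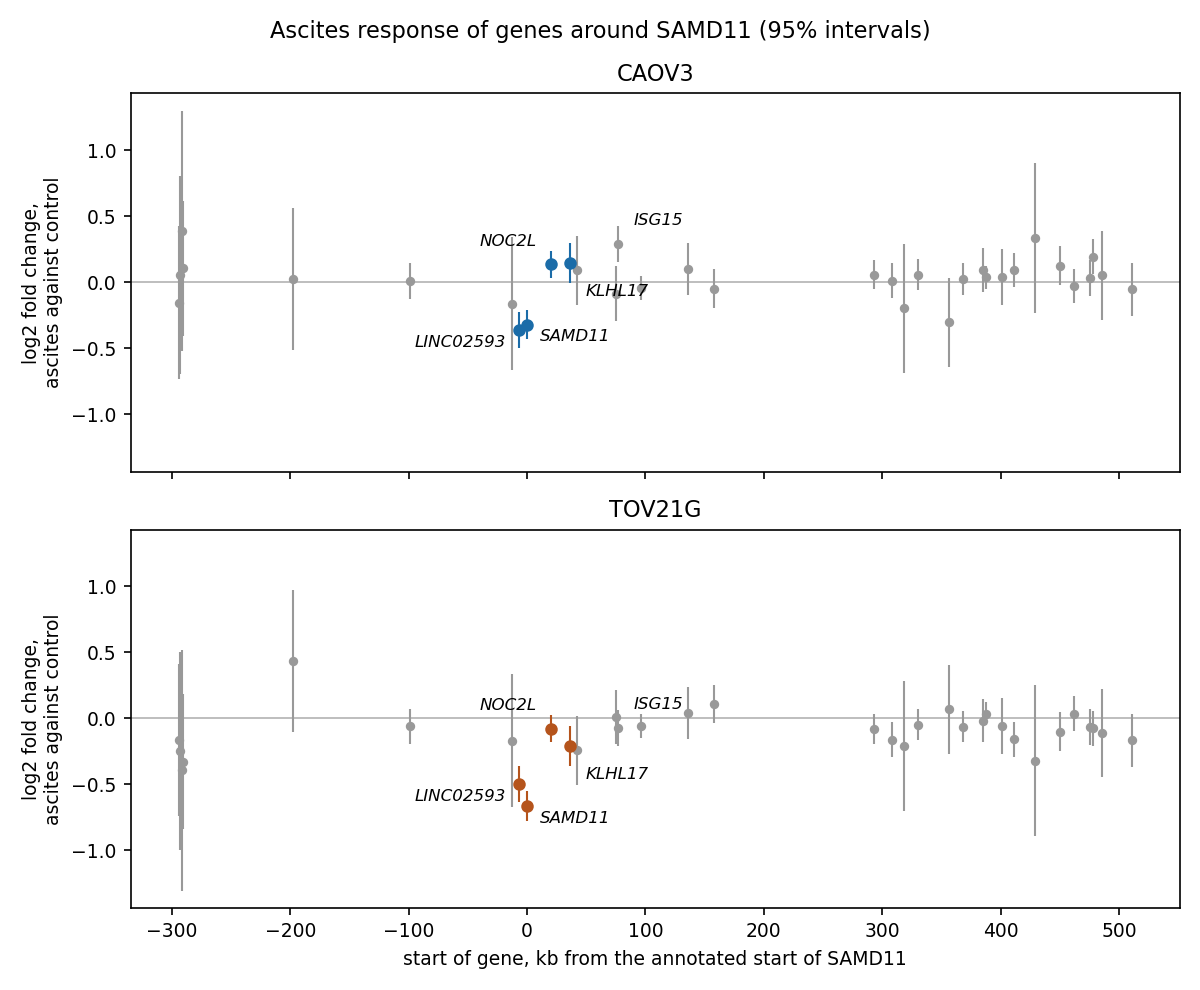
Log2 fold change with ascites (vertical axis) against the distance of each gene's start from the start of SAMD11 in kb (horizontal axis), for the genes of the 500 kb window with a mean of at least 50 normalised counts, with 95% intervals from limma. Coloured points are the 4 genes followed here. SAMD11 and LINC02593 lie below 0 in both lines, while the other points lie between -0.30 and 0.39 in CAOV3 and between -0.39 and 0.44 in TOV21G.

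The difference in response between the lines was taken as an interaction, TOV21G minus CAOV3, in which 0.545% of all genes were called and 0.307% called lower. For SAMD11 it was -0.34 (SE 0.07) and for LINC02593 -0.14 (SE 0.09), given without a test because these genes were chosen on the responses it is built from. For NOC2L the difference was -0.21 (95% interval -0.36 to -0.07, limma adjusted p = 0.251). For KLHL17 it was -0.35 (95% interval -0.57 to -0.14, limma adjusted p = 0.196), so neither NOC2L nor KLHL17 was called. All 4 estimates were negative, and the median over all tested genes was -0.01. The share of all tested genes below 0 is not given here.

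The nuclear-RNA range in TOV21G touched these genes within groups. In both TOV21G groups the library with the least KCNQ1OT1 (control 1, ascites 2) had the most SAMD11 (3207 and 2058), NOC2L (6097 and 5929) and KLHL17 (984 and 889). Without these libraries the TOV21G log2 difference was -0.67 for SAMD11 and -0.54 for LINC02593. Without the libraries with the most KCNQ1OT1 (control 2, ascites 3) it was -0.65 and -0.48. The differences of SAMD11 and LINC02593 in TOV21G were about as large without either pair. KCNQ1OT1 itself had a mean of 329 in TOV21G controls and 826 with ascites, and its mean stayed higher with ascites without either pair. Whether the nuclear-RNA range bears on these differences was therefore not tested.

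Before any treatment the lines differed in all 4 genes, a contrast that the choice of members did not use and in which 82.2% of all tested genes were called. SAMD11 was higher in TOV21G by 1.60 on the log2 scale (SE 0.05, limma adjusted p = 2.88e-12), about 3.02-fold, and LINC02593 by 1.15 (SE 0.06, limma adjusted p = 8.38e-10). KLHL17 was higher in TOV21G by 0.64 (SE 0.07, limma adjusted p = 1.17e-06). NOC2L went the other way, at -0.46 (SE 0.05, limma adjusted p = 6.71e-07). For each gene all 3 control libraries of one line lay beyond all 3 of the other. The share of all tested genes that do so is not given here. The share of genes called higher was 40.8% and lower 41.4%, so 4 calls of 4 are close to what the genome as a whole shows.

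Per kilobase of annotated exon, NOC2L was the most abundant in every group. In CAOV3 controls the levels were 1447 ± 25.1 normalised counts per kb for NOC2L, 247 ± 5.32 for SAMD11, 182 ± 8.95 for KLHL17 and 105 ± 5.21 for LINC02593. In TOV21G controls they were 1054 ± 43.6, 746 ± 30.1, 284 ± 7.92 and 233 ± 8.496 in the same order. With ascites in CAOV3, SAMD11 (197 ± 10.1) and KLHL17 (202 ± 20.4) no longer differed beyond their spread. In TOV21G with ascites SAMD11 (472 ± 25.4) stayed above KLHL17 (247 ± 13.7). These levels rest on GENCODE exon lengths, and the annotation used for counting is not given in the sources used here.

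Across the 4 groups, SAMD11 and LINC02593 had the same order: TOV21G controls, TOV21G ascites, CAOV3 controls and CAOV3 ascites, with no overlap between neighbouring groups. Controls above ascites within each line followed from how these genes were chosen, and 82.2% of all tested genes were called between the untreated lines. The share of all tested genes with this order is not given here. KLHL17 ranked TOV21G controls over TOV21G ascites over both CAOV3 groups, which overlapped. NOC2L ranked CAOV3 ascites over CAOV3 controls over both TOV21G groups, which overlapped.

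Genes related to the members by family or complex were also counted. By limma 1.73% of all tested genes were called in CAOV3 and 0.409% in TOV21G. Of all 17616 tested genes edgeR called 511 in CAOV3 and 114 in TOV21G, and DESeq2 507 and 150. The share at an unadjusted p under 0.05 is not given here. Of 15 listed SAM domain proteins of the Polycomb group, 13 were tested and 0 were called in either line by limma, edgeR or DESeq2. At an unadjusted p under 0.05 there were 2 in each line. Of 9 nucleolar partners of NOC2L, 0 were called in either line by these 3 tools, with 1 at an unadjusted p under 0.05 in each. In the untreated comparison 8 of the 9 were lower in TOV21G, as NOC2L was, with a median of -0.60 against -0.02 over all genes. In that comparison 41.4% of all tested genes were called lower and 82.2% in either direction. The largest gap was at BOP1, a ribosome assembly factor, at -2.02, and the gene not called was NOC3L, the partner of NOC2L in ribosome assembly, at -0.06.

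Of 23 Kelch adaptors and ligase core genes, 1 fell in CAOV3 by limma, against 1.1% of all tested genes called lower, and 0 were called in TOV21G, against 0.409% in either direction. At an unadjusted p under 0.05 there were 6 in CAOV3 and 1 in TOV21G. These counts have no share of all tested genes beside them, so they cannot be read as many or few. In CAOV3 edgeR called 1 higher and 2 lower and DESeq2 1 and 0. Of all 17616 tested genes these tools called 511 and 507 there, 309 and 319 of them lower. The limma call was KLHL24, a Kelch adaptor known to regulate keratin turnover, at 252, 244 and 272 normalised counts in CAOV3 controls and 202, 203 and 205 with ascites. Its log2 fold change was -0.33 (SE 0.07, limma adjusted p = 0.0445), with every ascites library below every control. In TOV21G KLHL24 had 400.0, 399 and 449.5 in controls and 374, 401 and 417 with ascites, which overlapped. The KLHL24 call was lost in every fit that left out 1 library, except the fit without TOV21G control replicate 1. DESeq2 did not call KLHL24.

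Genes whose values ran most like those of SAMD11 and LINC02593 were ranked by Pearson r over the 12 libraries, on log2 values centred on each line, among 13019 genes with a mean of at least 50. These libraries share the ascites difference, so r mostly carries that difference, and it is given as a description. Among the nearest to SAMD11 were SCD, the stearoyl-CoA desaturase (r = 0.985), TGFA, a ligand of the EGF receptor (r = 0.961), FDFT1, squalene synthase (r = 0.957), and SREBF2, a transcription factor of sterol synthesis (r = 0.952). For LINC02593 and SAMD11 r was 0.947. Nearest to LINC02593 were ZNF467, a zinc finger protein (r = 0.952), ID3, an inhibitor of basic helix-loop-helix factors (r = 0.945), MSX2, a homeobox factor (r = 0.943), SREBF1, the relative of SREBF2 (r = 0.942), and SREBF2 (r = 0.939).

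These genes differed in the size of their gap. SCD had a log2 fold change of -0.43 in CAOV3 and -0.97 in TOV21G, so like SAMD11 it was further from the controls in TOV21G. SREBF2 had -0.34 and -0.39, close to equal in both lines, and TGFA only -0.10 and -0.23. Running most opposite to SAMD11 were BIRC3, an inhibitor of apoptosis (r = -0.930), and DCUN1D4, a cofactor of cullin neddylation (r = -0.929). Opposite to LINC02593 were DNAJC25, a DnaJ family protein (r = -0.898), and SHH, a hedgehog ligand (r = -0.897). Over both lines r with SAMD11 was 0.146 for NOC2L and 0.381 for KLHL17, but its sign differed between the lines. In the 6 CAOV3 libraries it was -0.891 for NOC2L and -0.605 for KLHL17, and in the 6 TOV21G libraries 0.650 and 0.910. For NOC2L and KLHL17 with each other r was 0.762, and 0.780 and 0.745 within the lines.

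**Figure D4:**
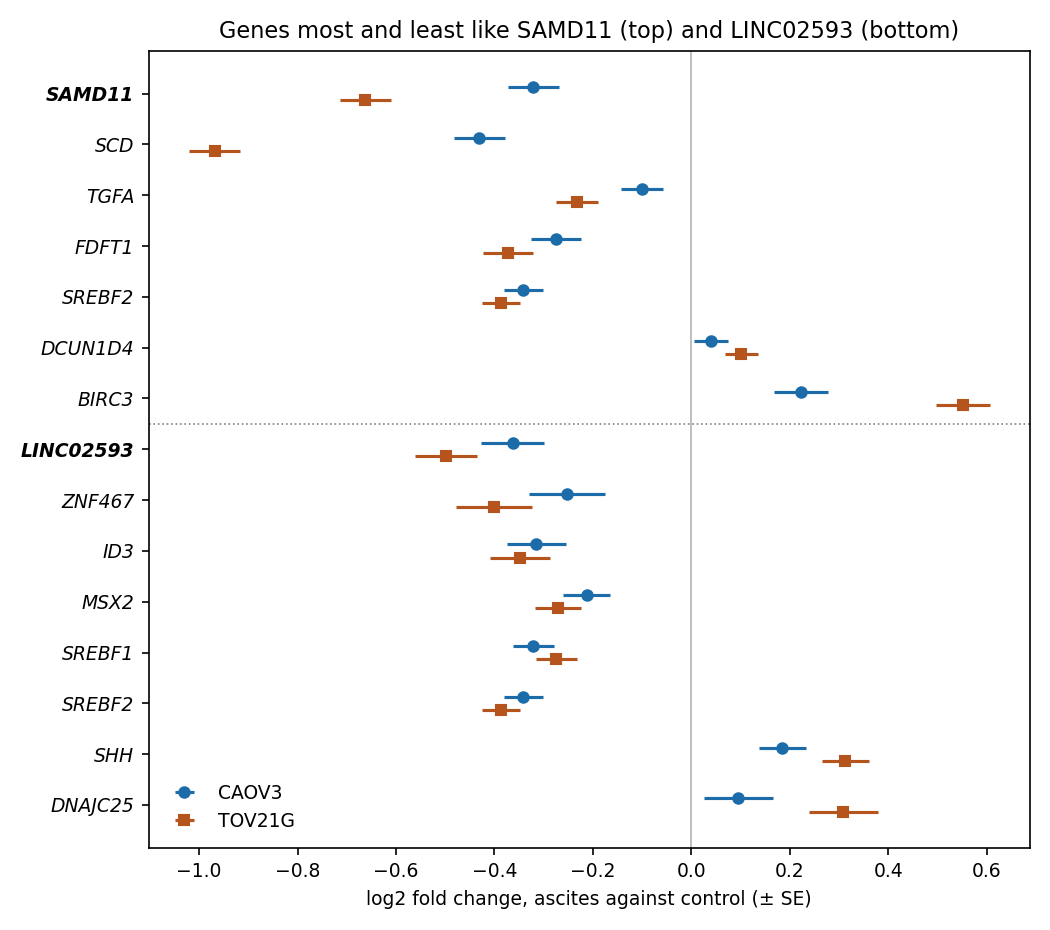
Log2 fold change with ascites in CAOV3 (circles) and TOV21G (squares), with SE from limma as bars, for SAMD11 and LINC02593 (bold) and the named genes most and least like each. Genes most like SAMD11 lie left of 0 in both lines, with SCD further left in TOV21G as SAMD11 is, and the least like genes lie right of 0.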

How the data were processed

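Reads were processed by the submitters with Trim Galore, cutadapt, STAR, HTSeq and DESeq, per the submitters' processing notes, which give no roles, versions or build. The deposited signal is a normalised count: 100% of values were whole multiples of 1 step per library, within 0.01 reads, and the steps matched DESeq2 size factors. Replicates differed by more than read sampling (chi-square per degree of freedom 1.81 to 22.6 over 12 pairs). Of 19251 identifiers, 19223 had a GENCODE position.

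Limma 3.58.1 in R 4.3.3 was fitted to log2(value + 1) of all 12 libraries, with 1 mean per group, a variance trend and no covariate, for 17616 genes with a value of at least 10 in at least 3 libraries. P-values are two-sided and Benjamini-Hochberg adjusted over all genes tested, with calls at an adjusted p under 0.05. The code was tested on simulated data. edgeR 4.0.16 and DESeq2 1.42.0 on recovered reads, other scalings, filters and pseudocounts, a replicate block and leaving out libraries were alternatives.

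The members, lists and motifs were chosen with earlier results of these data known. Named genes were the members, every gene with a value between LINC01128 and AGRN, any other called gene of the window, called family genes, and the 5 most and 2 least like SAMD11 and LINC02593, of which 1 is not reported here. The SAMD11 to KLHL17 ratio, BOP1, NOC3L, MTCO2P12 and the markers named were added after the values were seen. White cell markers other than CD14 and LYZ were not analysed here. Promoter sequences are from RefSeq, and all 4 members matched.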

Additional observations from a re-analysis of the deposited data

How the results depend on the processing

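Of 591 alternative values, 534 were labelled as unchanged and 0 as reversed. That label took direction and side of the threshold, or movement within the replicate spread. Counts of genes took it within a set factor, such as 420 against 305 called in CAOV3 with TMM scaling. The ascites differences of SAMD11 and LINC02593 took it even where a call was lost. The lower values of SAMD11 and LINC02593, the untreated differences and the ratios kept their direction under every alternative run, except the KLHL17 to NOC2L ratio in CAOV3 (-0.06 to 0.05). No setting called another gene within 500 kb of SAMD11 lower in either line. The count of all genes called in CAOV3 was 511 with edgeR, 507 with DESeq2, 116 with a replicate block and 620 without the TOV21G libraries low in KCNQ1OT1 (chosen after seeing the data), against 305. In TOV21G it was 114, 150 and 13, and 8 when only TOV21G libraries entered, against 72. For the difference between lines it was 148, 212, 9 and 188, and 151 with TMM scaling, against 96. Leaving out 1 library gave 162 to 345, 24 to 137 and 35 to 147.

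Genes called around SAMD11 in CAOV3 numbered 3, but 0 with the replicate block, 5 without the libraries low in KCNQ1OT1 (NOC2L and MRPL20 added, both higher), 5 within 1000 kb (ATAD3B added as higher and SLC35E2B as lower) and 1 to 3 with 1 library left out, the lowest without CAOV3 ascites replicate 2. In TOV21G they numbered 2, but 0 when only TOV21G libraries entered and 1 with the block. With only TOV21G libraries the fold changes of SAMD11 and LINC02593 were the same (-0.66 and -0.50), with SE 0.05 and 0.06, and the cause of the lost calls was not tested. Family genes called in CAOV3 numbered 1, but 3 with TMM scaling or edgeR, 0 with the block, 4 and 0 without the libraries low and high in KCNQ1OT1, and 0 to 1 with 1 library left out.

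The SAMD11 difference between lines was -0.31 with TMM scaling and with edgeR, -0.34 with DESeq2 and with the replicate block, and -0.38 to -0.30 with 1 library left out, all given without a test. Without the libraries low in KCNQ1OT1, NOC2L passed in CAOV3 at 0.13 (limma adjusted p = 0.0300) and for the difference at -0.23 (limma adjusted p = 0.0421). Each library's deviations from its group mean, on log2 values of genes with a mean of at least 50, were correlated between control and ascites libraries. For same-numbered libraries r of these deviations was -0.05 to 0.05 in CAOV3 and -0.43 to 0.03 in TOV21G. For differently numbered libraries it was -0.10 to 0.08 and -0.35 to 0.44. Same-numbered libraries thus deviated no more alike than others, and whether they shared a culture day was not tested. With 3 libraries a group, small differences such as those of NOC2L and KLHL17 are near the limit of what could be called.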

Other observations

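Within groups, SAMD11 and LINC02593 did not keep one order. In TOV21G controls SAMD11 was highest in replicate 1 (3207) and lowest in replicate 2 (2968), where LINC02593 was highest (994). In CAOV3 both were highest in control replicate 2 (1052 and 458) and in ascites replicate 1 (863 and 352).

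Among the window genes, the untreated lines differed in 33 of 45 genes other than the members, 22 higher and 11 lower in TOV21G by limma, against 82.2% of all tested genes (40.8% higher and 41.4% lower), with a median log2 difference of 0.45 against -0.02 over all tested genes.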
